A study of Oryza sativa with 4 samples.

Results

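The genes described here carry names of jasmonate synthesis enzymes or their families: the lipoxygenase LOX1.1, the allene oxide synthases AOS1 and AOS2, the allene oxide cyclase AOC, reductases of the OPR family and the conjugating enzyme JAR1. They were found by symbol or synonym in the RefSeq annotation of rice, which gave 9 genes. Of these 8 had a probe set of their own, 1 each, among 57194 probe sets and 17905 genes with a single-gene probe set on the array. Young panicles of rice (Oryza sativa) before stage 5 were measured on 4 Affymetrix arrays. The wild type (WT, ZH11) and ago2-1, in which OsAGO2 (an argonaute gene) is targeted by antisense RNA, each gave 1 array in 2013 and 1 in 2014, so n = 2 per genotype. All plants grew in the field under normal conditions, and nothing in the sources used here gives their age, how many plants or lines went into an array, or the promoter of the construct. The p-values therefore measure the spread between these arrays.

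Jasmonates are lipid hormones of wounding, defence and flower development. Lipoxygenase adds oxygen to linolenic acid in the plastid, allene oxide synthase and allene oxide cyclase turn the product into the cyclic precursor OPDA, an OPDA reductase in the peroxisome reduces its ring, and rounds of beta-oxidation shorten the chain to jasmonic acid. JAR1 then joins it to isoleucine, the form that the COI1 receptor binds together with JAZ repressors (TIFY proteins), which are degraded so that transcription factors are released. In rice, loss of AOC gives plants without functional jasmonate synthesis and with disturbed spikelets and anthers, and JAZ genes are themselves switched on by the hormone.

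In 2013 all 8 genes lay lower in ago2-1 than in WT, with log2 differences from −0.11 to −1.22 and with AOS1, OPR7 and AOC farthest apart, where 46.9% of all probe sets lay lower. In 2014 5 of 8 lay lower, where 49.4% of all probe sets did. None was 1.5-fold apart on the deposited scale, where 803 of 57194 probe sets (1.4%) were at least 1.5-fold lower and 726 higher. After quantile scaling 1 of the 8 was 1.5-fold lower in 2014 (−0.60), beside 878 of the 57194 probe sets. None of the 8 passed the test between the genotypes, which called 0.0507% of all probe sets. Between the years 3 of 8 genes passed, all lower in 2014, beside 11.1% of all probe sets in that direction. They were LOX1.1, with a log2 difference of −4.96 after quantile scaling and −4.28 on the deposited scale, AOS2 and OPR7.

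The arrays of a year shared nearly the same distribution of values, while between the years the distributions were shifted, by a median of 0.65 log2 upward in 2014. Levels below are log2 of the deposited intensity, and levels of different years hold on this scale only within a year. The median of all probe sets was 4.86 and 4.85 on the arrays of 2013 and 5.50 on both arrays of 2014. The targeted gene AGO2 differed by 0.08 in 2013 and 0.45 in 2014 and so was no lower in ago2-1 than in WT. Every direction given for ago2-1 is therefore that of the libraries labelled ago2-1. All 11 measured floral marker genes (MADS-box genes and DL) lay above the array median on every array. Of the 8 measured seed storage genes 5 lay below the median on every array and 3 above it, none beyond the 66.0th percentile of an array. Of the 5 measured green tissue genes 4 lay above the median on every array and 1 below it, with values up to percentile 99.9. In such whole panicles, fewer cells of a type and less RNA per cell cannot be told apart.

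**Figure D1:**
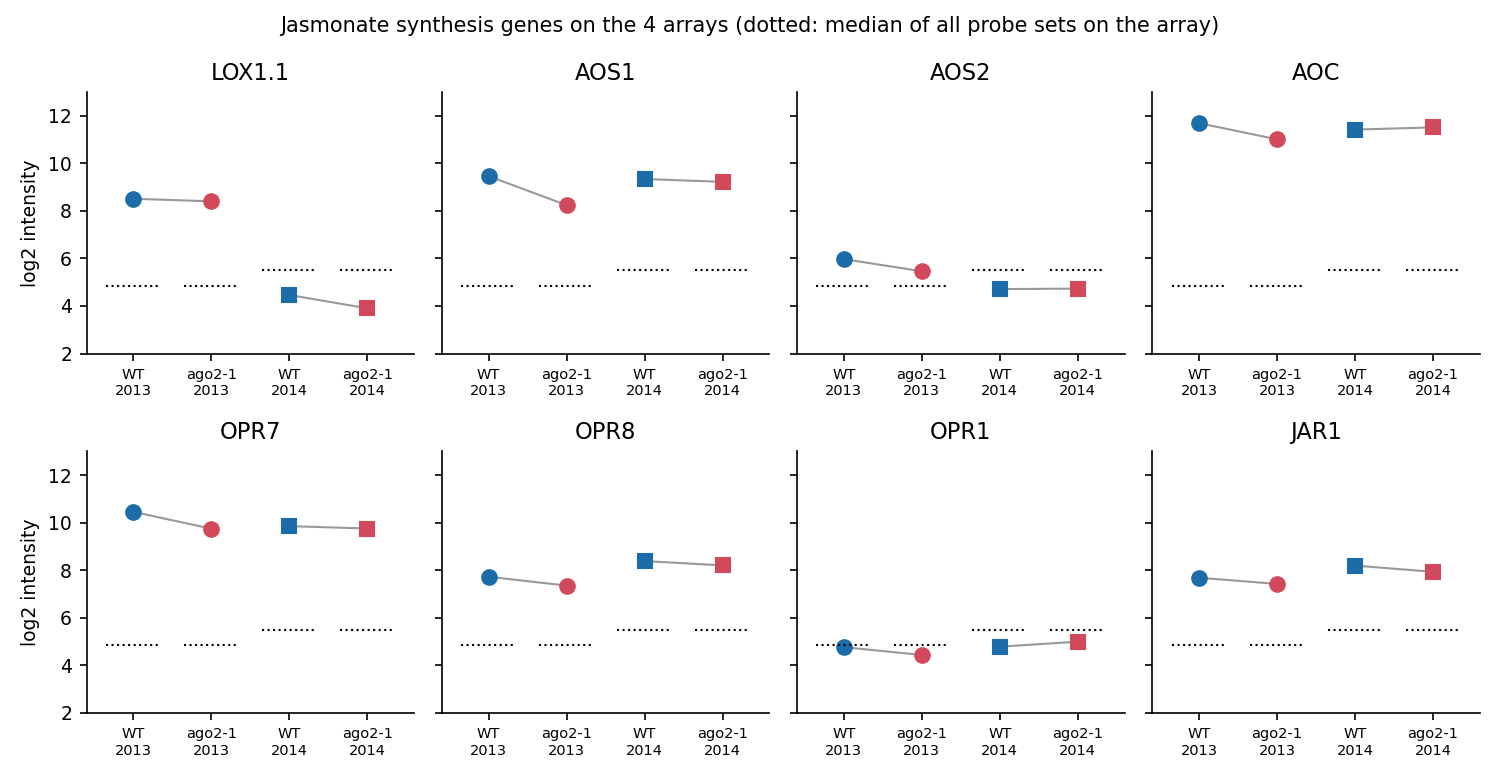
Log2 intensity of the 8 genes (y axis) on the 4 arrays (x axis), 1 point per array, circles for 2013 and squares for 2014, blue for WT and red for ago2-1, with grey lines joining the arrays of a year. Dotted lines are the array medians of all probe sets; LOX1.1 lies far above them in 2013 (8.51 and 8.40) and below them in 2014 (4.46 and 3.90).

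LOX1.1 (LOC4334049, chromosome 3) is a lipoxygenase, the enzyme class of the entry step. Whether this lipoxygenase acts in the jasmonate route was not tested here. In 2013 its level was 8.51 in WT and 8.40 in ago2-1, and in 2014 it was 4.46 and 3.90. The arrays of 2013 were both high and those of 2014 both low, below the array median, and the gap between the genotypes was small in 2013. The difference of ago2-1 from WT was −0.11 in 2013 and −0.57 in 2014, so LOX1.1 was the only one of the 8 genes whose gap was wider in 2014. In 2014 1.55% of all probe sets lay as far down or farther, but at 3.90 the gene was at percentile 23.2 of its array, among dim probe sets, and no detection call was used here.

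AOS1 (LOC4334233, chromosome 3) makes the allene oxide from the lipoxygenase product. In 2013 it lay at 9.46 in WT and 8.24 in ago2-1, and in 2014 at 9.34 and 9.22. The ago2-1 array of 2013 was the low one, with an intensity of 0.428 of the WT intensity, and the genotypes were nearly level in 2014, with a ratio of 0.919. The log2 differences were −1.22 and −0.12. In 2013 1.09% of all probe sets lay as far down as AOS1, and 1.71% of those with a mean level above the median. AOS1 was the only gene of the 8 that differed 2-fold in that year, where 1.59% of all probe sets were at least 2-fold lower. Of the 28597 probe sets above the median level 710 were.

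AOS2 (LOC4332121, chromosome 3) encodes another allene oxide synthase. It lay at 5.97 in WT and 5.46 in ago2-1 in 2013, and at 4.71 and 4.73 in 2014. It was above the array median in 2013 and below it in 2014 in both genotypes, and the genotypes differed by −0.51 in 2013 and 0.02 in 2014. AOS1 and AOS2 thus shared the direction of the 2013 gap.

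AOC (LOC4333201, chromosome 3), listed also as CPM2 and as AOC3 in the annotation, forms OPDA. It lay at 11.69 in WT and 11.01 in ago2-1 in 2013, and at 11.42 and 11.51 in 2014. These values are at the 96.4th to 98.5th percentile of the arrays, so AOC was bright throughout. Its difference was −0.68 in 2013 and 0.09 in 2014, so ago2-1 was the lower genotype in 2013 and slightly the higher in 2014.

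The OPR family holds several reductases, of which rice OPR7 is the one known to act on the OPDA isomer of the jasmonate route, while OPR1 belongs to a subgroup with other substrates. The name OPR7 reached 2 genes: LOC4345762 on chromosome 8, called OPR7 here, and LOC4329684 on chromosome 2, also named OPR8 and called so here. OPR7 lay at 10.45 in WT and 9.74 in ago2-1 in 2013, and at 9.85 and 9.75 in 2014. WT was the higher genotype in both years, by 1.64-fold in 2013 and 1.07-fold in 2014. OPR8 lay at 7.72 and 7.35 in 2013 and at 8.38 and 8.20 in 2014. It was lower in ago2-1 in both years, by 0.36 and 0.18, both within the range that many probe sets showed (19.7% were at least as far apart in 2013 and 36.3% in 2014).

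OPR1 (LOC4340490, chromosome 6) lay at 4.76 in WT and 4.43 in ago2-1 in 2013, and at 4.78 and 4.99 in 2014. All 4 values were below the array median, and the difference was −0.34 in 2013 and 0.21 in 2014. The name OPR1 also reached LOC112936094, the next gene along the chromosome, which has no single-gene probe set in the platform's annotation. The same stretch holds further genes with OPR names, of which LOC4340484, LOC4340485 and LOC4340486 were measured and lay below the array median on every array. Whether probes of OPR1 also bind RNA of its near copies cannot be read from the files, so its value is uncertain between these genes.

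JAR1 (LOC4339756, chromosome 5), which makes jasmonoyl-isoleucine, lay at 7.68 in WT and 7.42 in ago2-1 in 2013, and at 8.19 and 7.93 in 2014. The ago2-1 array was the lower one by the same amount in both years, −0.26 and −0.26. Gaps of this size were common, with 32.5% of all probe sets at least as far apart in 2013 and 21.2% in 2014.

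**Figure D2:**
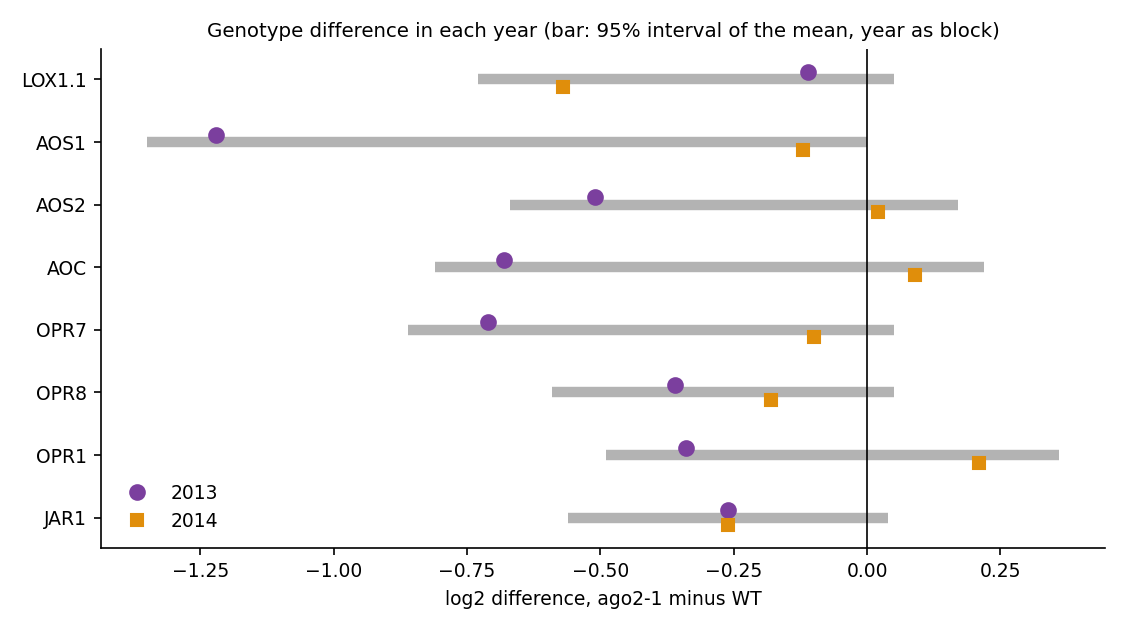
Difference of ago2-1 from WT on the log2 scale (x axis) for each gene, with the year 2013 as circles, 2014 as squares and the 95% limma interval of the mean difference, year as a block, as a grey bar. The circles of 2013 lie left of 0 for all 8 genes, from −0.11 (LOX1.1) to −1.22 (AOS1), while the squares of 2014 spread around 0.

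To ask whether the genotypes differed, all 57194 probe sets were fitted with limma on the 4 arrays without a block. None of the 8 genes was called at an adjusted p of 0.05, and none had an unadjusted p under 0.05, as 0.512% of all probe sets did. Simulated data were given a genotype change in some probe sets and a change between the years in all. There this fit called none of the changed probe sets and the fit with year as a block called all of them. A missing call without the block therefore says little. The simulated genotype changes were larger than any difference of the 8 genes and equal in both years. What the fit with the block would call at the sizes seen here was thus not simulated. The mean difference of AOS1 was −0.67 ± 0.78 (SD of the 2 within-year differences, n = 2). The fit without the block, which ignores the pairing by year, gave it a 95% interval from −1.92 to 0.57 and an adjusted p of 1 by limma. The mean difference of OPR7 was −0.41 ± 0.43 (n = 2), with a 95% interval from −1.64 to 0.83 in the same unpaired fit. For the remaining 6 genes the mean differences ran from −0.34 for LOX1.1 to −0.06 for OPR1, each with an adjusted p of 1 by limma.

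With year as a block none of the 8 genes was called either, where 0.107% of all probe sets were. The interval of AOS1 then ran from −1.35 to −0.00 (adjusted p = 0.569 by limma) and that of JAR1 from −0.56 to 0.04 (adjusted p = 0.60). AOS1 alone had an unadjusted p under 0.05, as did 8.77% of all probe sets. Whether the genotype difference itself differed between the years could not be tested, since 4 arrays leave no residual degrees of freedom for that term.

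The gap of 2013 had 1 direction over the 8 genes and that of 2014 did not, which is a description of 4 arrays. In 2013 the median difference of the 8 genes was −0.44, against 0.01 over all probe sets. At least 1.5-fold lower were AOS1, OPR7 and AOC, 3 of 8, where 4.14% of all probe sets were. Of the 28597 probe sets with a mean level above the median 1703 were. In 2014 the median difference of the 8 genes was −0.11, against 0.00 over all probe sets. Lower in both years were 5 of 8, LOX1.1, AOS1, OPR7, OPR8 and JAR1, beside 27% of all probe sets. For 7 of 8, all but LOX1.1, the difference of 2013 was lower and farther from 0 than that of 2014, JAR1 by less than rounding, beside 27.4% of all probe sets. The SD of the differences over all probe sets was 0.41 in 2013 and 0.28 in 2014, so the arrays of 2013 were farther apart in general.

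**Figure D3:**
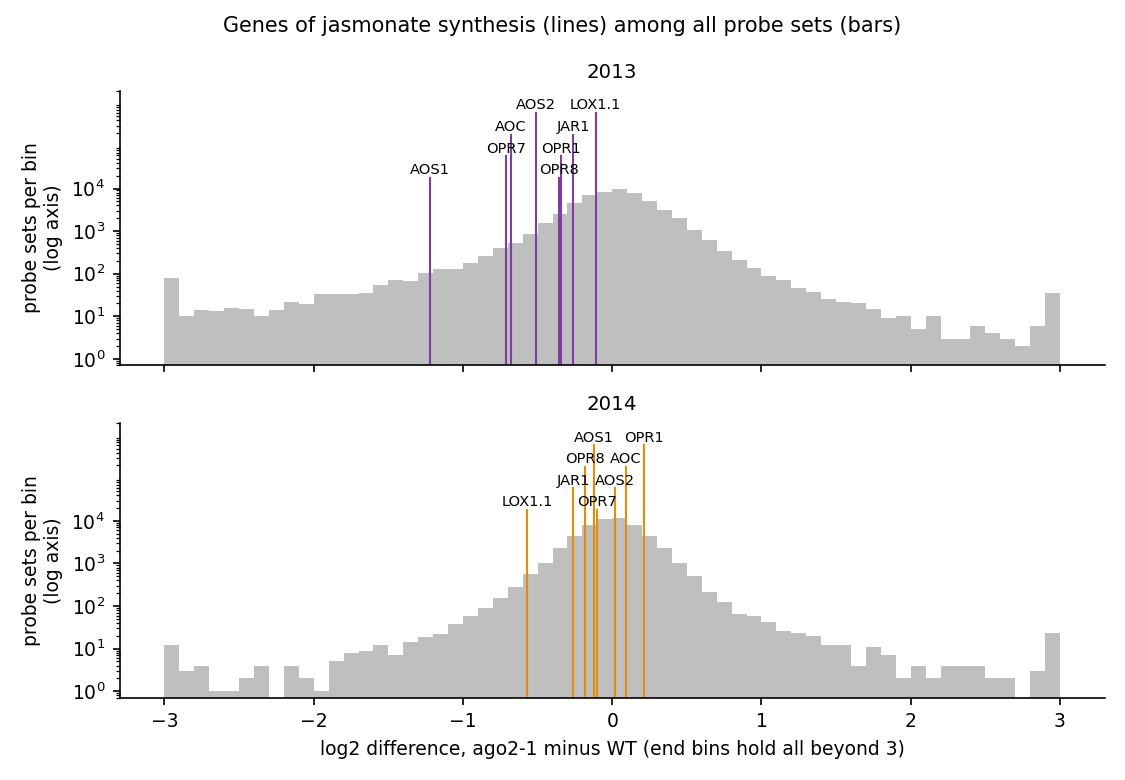
Number of probe sets (y axis, log axis) by the log2 difference of ago2-1 from WT (x axis) in 2013 (top) and 2014 (bottom), as grey bars, with a labelled line at each of the 8 genes. In 2013 all lines lie left of 0, with AOS1 (−1.22) in the lower tail, and in 2014 the lines lie on both sides of 0, LOX1.1 (−0.57) lowest and OPR1 (0.21) highest.

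After quantile scaling, which sets the 4 arrays on a common distribution, the WT array of 2013 was the highest of the 4 for 7 of 8 genes, beside 24.6% of all probe sets (5 of 8 genes on the deposited scale and 8 of 8 after cyclic loess scaling). The exception was OPR8, whose highest array was WT of 2014, at 8.06 on the scaled log2 scale as in 2013. For AOS1 the scaled levels were 9.76 in WT and 8.55 in ago2-1 in 2013, and 9.03 and 8.89 in 2014, so that ago2-1 of 2013 was lowest and WT of 2013 highest. For AOC the scaled levels were 11.98 and 11.30 in 2013 and 11.13 and 11.21 in 2014. For AOC the WT array of 2013 was thus high and the other 3 lay between 11.13 and 11.30. OPR7 had scaled levels of 10.74 and 10.04 in 2013 and 9.55 and 9.44 in 2014, highest in WT of 2013, lower in ago2-1 of 2013 and lowest on both arrays of 2014.

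Between the years the question was which genes changed from the 2013 to the 2014 panicles, with genotype as a term and after quantile scaling. LOX1.1, AOS2 and OPR7 passed, all of them lower in 2014, which is 3 of 8 beside 23.3% of all probe sets in either direction and 11.1% in the lower direction. LOX1.1 fell by 4.96 ± 0.33 log2 (SD over the 2 genotypes, n = 2, limma adjusted p = 0.000482), from a mean of 8.78 to 3.82. It changed by −4.73 in WT and −5.19 in ago2-1, and only 0.0122% of all probe sets had a change as low. Its change was 31.2-fold on this scale and smaller on the deposited scale, at −4.28 log2, and its 2014 values lie among dim probe sets, so its size is less certain than its direction.

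AOS2 fell by 1.64 ± 0.37 (n = 2, limma adjusted p = 0.00582), with −1.90 in WT and −1.37 in ago2-1, and differed by −0.99 on the deposited scale. OPR7 fell by 0.89 ± 0.41 (n = 2, limma adjusted p = 0.0237), with −1.18 in WT and −0.60 in ago2-1. The call of OPR7 was lost without the genotype term (limma adjusted p = 0.0684) and on the deposited scale (−0.30, limma adjusted p = 0.176), while LOX1.1 and AOS2 were called under each scaling run. The other 5 genes did not pass. AOC differed by −0.47 (95% limma interval −0.97 to 0.03), OPR1 by −0.37 (−0.78 to 0.05), AOS1 by −0.19 (−0.84 to 0.46), JAR1 by −0.13 (−0.43 to 0.18) and OPR8 by 0.11 (−0.21 to 0.43).

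On the deposited scale 80.5% of all probe sets were called between the years, and the signs of AOS1, AOC, OPR1 and JAR1 turned positive there, so the directions of these 4 hold only relative to the other probe sets. JAR1 and OPR8 were called higher in 2014 there (limma adjusted p = 0.0108 and 0.00357). Fits without 1 array were run without the genotype term. LOX1.1 and AOS2 kept their calls without the WT array (limma adjusted p = 0.0117 and 0.0217) or the ago2-1 array of 2013 (0.00557 and 0.00773), and lost them without the WT array (0.102 and 0.153) or the ago2-1 array of 2014 (0.126 and 0.154). In each of these last fits limma called 0 of all probe sets, with 12670 and 12507 at an unadjusted p under 0.05, among them LOX1.1 and AOS2. OPR7, not called in that form on all 4 arrays, was called without the ago2-1 array of 2013 (−1.24, limma adjusted p = 0.017). It was not called without WT of 2013 (−0.54, limma adjusted p = 0.0815), without WT of 2014 (−0.95, 0.249) and without ago2-1 of 2014 (−0.83, 0.284). Without the ago2-1 array of 2013 5 of the 8 genes were called lower, beside 7.34% of all probe sets, with AOS1 (−0.80, limma adjusted p = 0.037) and AOC (−0.81, limma adjusted p = 0.0329) in addition. Year, season and any difference in how the arrays of a year were run cannot be told apart.

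**Figure D4:**
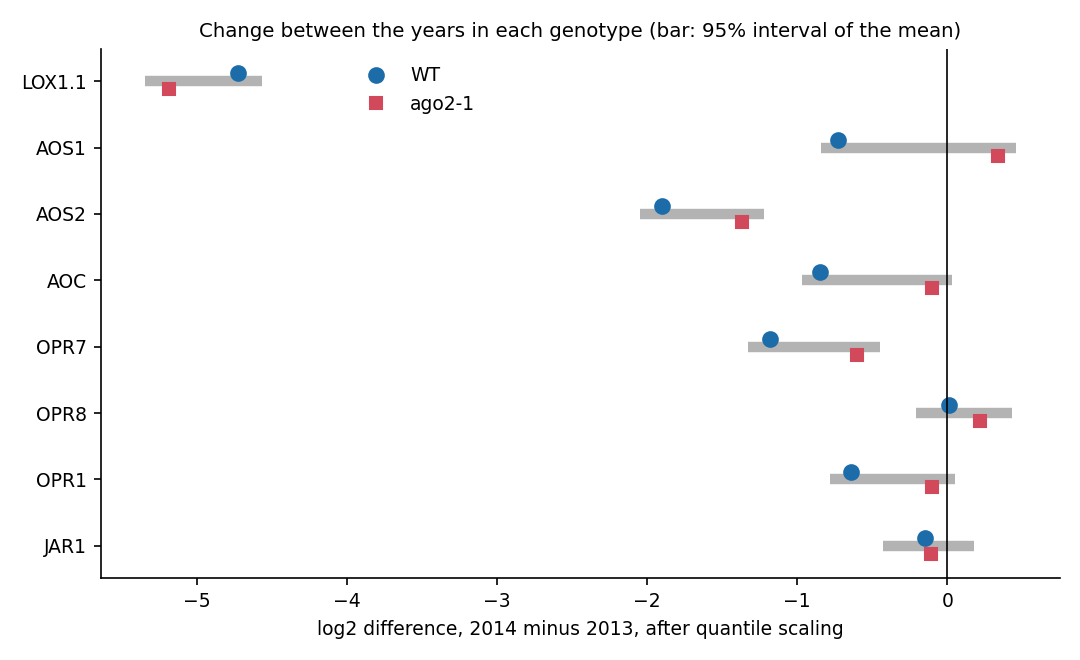
Change from 2013 to 2014 on the log2 scale after quantile scaling (x axis) for each gene, with WT as circles, ago2-1 as squares and the 95% limma interval of the mean as a grey bar. LOX1.1 (−4.73 and −5.19) and AOS2 (−1.90 and −1.37) lie left of 0 in both genotypes, while AOS1 lies at −0.73 in WT and 0.34 in ago2-1.

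The change over the years was lower in WT than in ago2-1 for 7 of 8 genes, and the share of all probe sets with this order was not counted. This order restates the wider genotype gap of 2013 and was not tested apart. AOS1 showed it most, with −0.73 in WT and 0.34 in ago2-1. JAR1 showed it least, with −0.15 and −0.11, and LOX1.1 went the other way.

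The rest of the pathway was read from a list of 35 measured genes, 12 of other synthesis names, 21 of perception and repression and 2 response factors, 1 probe set each. The name TIFY reached 18 genes, measured or not, and the name JAZ 13. The perception and repression list thus holds TIFY genes that are not named as JAZ repressors. Among the other synthesis genes none passed between the genotypes and none was 2-fold apart in either year. Their median difference was −0.24 in 2013, with 8 of 12 lower beside 46.9% of all probe sets, and 0.03 in 2014, with 6 of 12 lower beside 49.4%. Of these genes 9 lay below the array median on all arrays, including AOS3 and AOS4 and the OPR genes outside the 8. LOX5 (LOC4333823) was bright, at 11.65 and 11.21 in 2013 and 11.81 and 11.80 in 2014, with ago2-1 lower in 2013 and level with WT in 2014. MFP (LOC4328997), a multifunctional protein of beta-oxidation, lay at 10.54 and 10.76 in 2013 and 11.22 and 11.20 in 2014 and thus ran the other way in 2013. Between the years OPR5 (LOC4340485) fell by 0.95 (limma adjusted p = 0.0138) and AOS3 (LOC4328742) fell by 0.72 (limma adjusted p = 0.0169) after quantile scaling, both among dim values, and the other 10 did not pass. These 2 of 12 stand beside 11.1% of all probe sets called lower.

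Perception and repression genes spread from −5.25 to 5.90 in 2013 and from −0.97 to 5.64 in 2014. TIFY5 was the only gene of the 35 that passed between the genotypes (upward, limma adjusted p = 1.66e-07), with differences of 5.90 and 5.64. In 2013 7 of 21 were at least 2-fold lower in ago2-1, beside 1.59% of all probe sets, and in 2014 none was, beside 0.294%. These 7 were all TIFY genes of the TIFY10 and TIFY11 groups, from −1.25 for TIFY10A to −5.25 for TIFY11E. Their differences in 2014 ran from −0.97 for TIFY11A to 0.40 for TIFY11B. The receptor genes lay the other way in 2013, COI1A at 0.34, COI1B at 0.60 and COI2 at 0.25, with 0.03, 0.04 and 0.02 in 2014.

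The response factor BHLH148 (LOC4334060), a bHLH protein tied to jasmonate signalling in rice, lay at 10.08 on the WT array of 2013 and at 5.55, 6.69 and 6.47 on the ago2-1 array of 2013 and the WT and ago2-1 arrays of 2014. It was high on 1 array of 4, the WT array of 2013. Its difference was −4.53 in 2013 and −0.22 in 2014, with a limma adjusted p of 1 without a block. JAMYB (LOC4351131), a jasmonate-induced MYB factor, went the other way, at 4.95 and 5.64 in 2013 and 4.56 and 5.35 in 2014. It was higher in ago2-1 by 0.69 and 0.79 without passing the test (limma adjusted p = 1). After quantile scaling JAMYB fell between the years by 0.98 (limma adjusted p = 0.00935). The levels given here are on the deposited scale, where its fall was smaller. In the perception list 5 genes passed lower in 2014 and 1 higher, beside 11.1% and 12.2% of all probe sets. TIFY11C fell by 3.48, TIFY11D fell by 3.09, TIFY10C fell by 1.85, TIFY11A fell by 1.20 and TIFY9 fell by 0.64, while TIFY5 rose by 0.66, all on the scaled log2 scale.

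**Figure D5:**
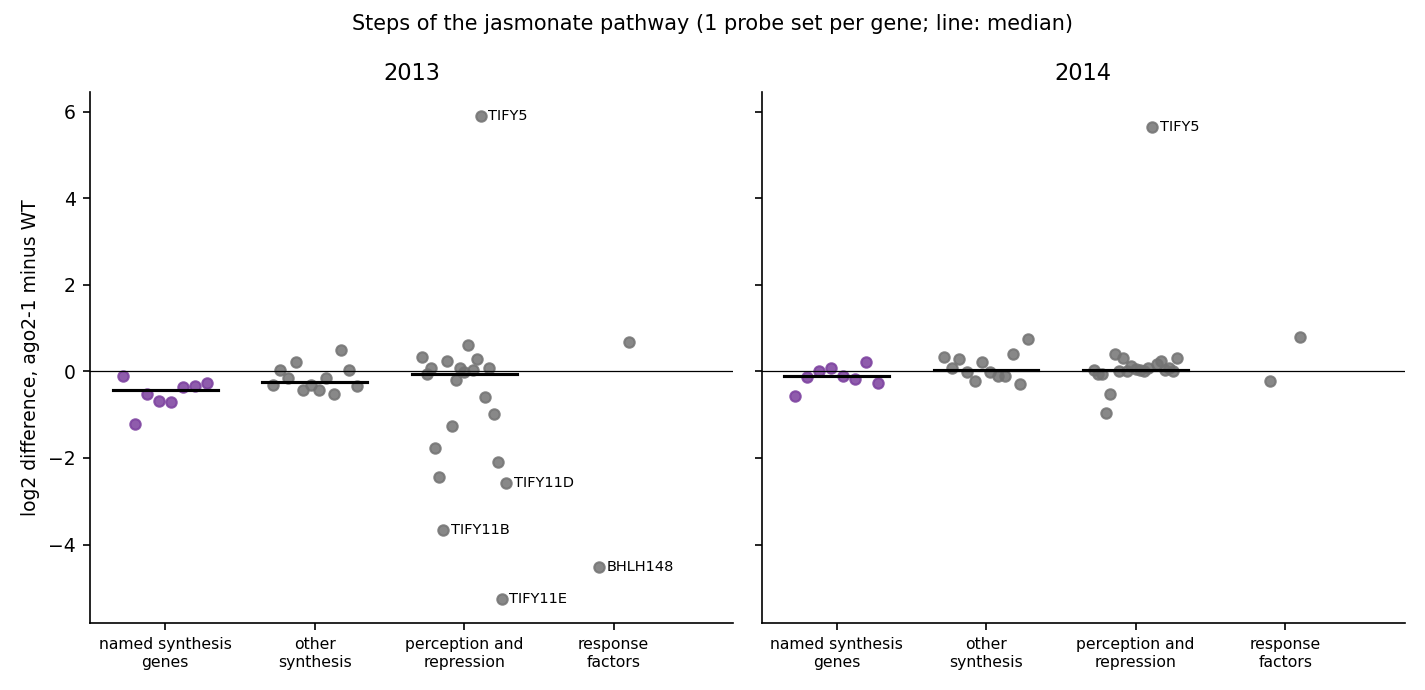
Log2 difference of ago2-1 from WT (y axis) for the 8 named synthesis genes and the 35 other pathway genes by step (x axis), in 2013 (left) and 2014 (right), 1 point per gene and a line at the median of a step with more than 2 genes. In 2013 the named synthesis genes lie between −0.11 and −1.22, and TIFY11E (−5.25) and BHLH148 (−4.53) far below them, while in 2014 only TIFY5 (5.64) lies far from 0.

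Marker lists of other tissues and of stress were read on the same arrays, and their part in the 2013 gap of the synthesis genes was not tested. Of 35 measured stress genes (heat shock, heat factor, DREB1 and WRKY71 genes) 26 were lower in ago2-1 in 2013, beside 46.9% of all probe sets, with 7 at least 2-fold lower (1.59% of all probe sets) and 1 at least 2-fold higher. In 2014 23 were lower, beside 49.4%, with 3 at least 2-fold lower (0.294%) and 2 at least 2-fold higher. Their median difference was −0.19 in 2013 and −0.18 in 2014, and their summed intensity in ago2-1 was 0.898 of that in WT in 2013 and 0.92 in 2014. The summed intensity of the 8 synthesis genes was 6274 in WT and 3952 in ago2-1 in 2013, a ratio of 0.63, and 5017 and 4994 in 2014, a ratio of 0.995. Most of the sum of 2013 came from AOC (3298 in WT and 2059 in ago2-1) and OPR7 (1399 and 853). Ratios of single genes in 2013 ran from 0.428 for AOS1 to 0.924 for LOX1.1. Green tissue genes (5 measured) had ratios of 1.15 and 0.898, clock genes (7 measured) 1.26 and 1.11, seed storage genes 0.999 and 1.06 and the floral marker genes 1.09 and 1.09. Between the years, on the quantile-scaled log2 scale, the median change of the green tissue genes was 1.70 in WT and 1.47 in ago2-1, and the clock genes spread from −5.96 to 6.03 in WT and from −6.09 to 6.13 in ago2-1. Stress genes had median changes of 0.24 and 0.30 on that scale. On the deposited scale, shifted upward in 2014, the medians were 2.30 and 2.07 for the green tissue genes and 0.82 and 0.90 for the stress genes.

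The genes whose profile over the 4 arrays lay nearest were sought among 72 genes with a symbol of their own and a mean above the median, by the Euclidean distance of log2 profiles centred on their mean. OPR7 lay nearest to CPK13 (LOC4336783), a calcium-dependent protein kinase, at a distance of 0.28. AOS1 lay nearest to AT9 and WRKY51, both at 0.47, and to CPK13 at 0.54. AOS2 lay nearest to CPK24, at 0.64, and PP2C68, a protein phosphatase, at 0.67. No gene of the 72 came close to LOX1.1, for which the nearest, PP2C68, was at 3.69. The distances rest on 4 arrays, 2 of each year.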

How the data were processed

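Probe set intensities on a linear scale were used as the authors deposited them. Per the submitters' processing notes RMA was used, with no version given; RMA usually gives log2 values, and the deposited values, up to 27773, are linear, so log2 was taken with no pseudocount. The extraction label names a human tissue and was not used. Probe sets were tied to genes by the platform's annotation and to symbols by the RefSeq table of assembly ASM3414082v1, from which no coordinates were used. Genotypes and years were compared with limma 3.58.1 in R 4.3.3, at 0.05 after Benjamini-Hochberg adjustment across the 57194 probe sets, the genotypes on the deposited log2 scale without a block and the years after quantile scaling with genotype as a term. The prior degrees of freedom were 40.3 against 2 residual for the genotypes and 4.48 against 1 for the years. The spread without a block includes the shift between the years. The titles give the year of each array, a shared season, so the years pair the arrays; as a check, same-year arrays deviated together from their genotype mean (r = 0.77 across probe sets, 0.76 after quantile scaling). Alternatives were year as a block, other scalings, prior variances, a filter on level, a threshold of 0.1 and leaving out each array. The fits were tested on simulated data with genotype changes larger than any difference of the 8 genes. There the genotype fit recovered the changed probe sets with year as a block and none without it. Precision is limited by the number of arrays, and no detection calls were used. Named were all 8 genes and pathway genes past the threshold or 2-fold apart between the genotypes in a year (at most 20 by size). The 3 nearest profiles were sought for LOX1.1, AOS1, AOS2 and OPR7, and not all of them were named. Other pathway genes were named after their values were seen. The members and lists were chosen with earlier results of these data known. The name DAD1 reached an oligosaccharyltransferase subunit, which was left out. MADS18 and, from the seed list, MADS3 were left out as reached through synonyms. Names such as ACX, HPL and MYC2 reached no gene in the annotation used. A promoter motif search planned with the tests was not run, as no promoter sequences were used here.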

Additional observations from a re-analysis of the deposited data

How the results depend on the processing

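No member was called between the genotypes in the main fit, with year as a replicate block (0 of 8), with the other scalings, prior variances, level filter or threshold of 0.1, or without any 1 array. Over all probe sets limma called 29 between the genotypes, 61 with year as a replicate block, 51 with a trend in the prior variance, 19 after the level filter, 1 after quantile, median or cyclic loess scaling (684, 593 and 678 at an unadjusted p under 0.05) and 29 to 136 without 1 array. Between the years it called 13338, against 46058 on the deposited scale, 4967 after the level filter and 0 to 8295 without 1 array. Mean genotype differences kept their sign in all of these but the fits without 1 array, which mix in the change between the years. There LOX1.1 ran from −2.59 to 1.91, AOS2 from −0.87 to 0.38, OPR8 from −0.69 to 0.15 and OPR1 from −0.35 to 0.22. Between the years 3 members were called, and 0 to 5 without 1 array and without a genotype term. On the deposited scale the year differences of AOS1 (0.43), AOC (0.12), OPR1 (0.29) and JAR1 (0.51) turned upward with the shift in scale. Without 1 array AOS1 ran from −0.80 to 0.41, OPR8 from −0.09 to 0.31 and JAR1 from −0.28 to 0.02 between the years. With the genotype term kept, a fit on 3 arrays has no residual degrees of freedom and gives values only, for AOS1 −0.73 or 0.34. The counts of members lower in 2013 (8), lower in 2014 (5) and highest on the WT array of 2013 (7, from 5 on the deposited scale to 8 after cyclic loess) moved by less than 1.5 times under every scaling run. These counts over scalings, and the year fits without an array and without a genotype term, were chosen after seeing the data. Dim values limit LOX1.1 in 2014, AOS2 in 2014 and OPR1, the only member the level filter removed.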
